A study of Mus musculus with 57 samples.

Results

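The 10 genes described here, Eln, Fbn1, Fbn2, Mfap4, Fbln5, Lox, Loxl1, Pdgfa, Pdgfra and Pdgfrb, encode parts of the elastic fibre and the platelet-derived growth factor (PDGF) ligand and receptors of the myofibroblasts that make it. They were chosen by gene name out of the 56860 genes of the deposited tables, and all 10 were found in both tables. Earlier results of these data were known at that choice, so shares of members set against all genes are descriptions. Bulk RNA-seq of polyA RNA was available for 57 libraries of wild-type (wt) and Hoxa5-/- mouse embryos on the 129/Sv background. The Hoxa5-/- embryos were homozygous for the Hoxa5tm1Rob null allele, in which a neomycin cassette interrupts the homeobox. Every cell of these embryos carries the allele from the start of development, so a difference cannot be placed in 1 cell type or stage. Stages are embryonic days (E). There were 4 wt and 4 Hoxa5-/- libraries each of E15.5 trachea, E12.5 lung, E15.5 lung, E15.5 diaphragm and E12.5 somites, 4 wt and 3 Hoxa5-/- libraries of E10.5 somites, and 5 libraries per genotype of E18.5 brown fat from between the shoulder blades (iBAT). The somite samples were trunk segments C3 to T2 freed of neural tube, forelimbs and thoracic organs. Each value comes from a whole tissue, in which fewer cells of a type and less RNA per cell cannot be told apart.

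Elastic fibres give recoil to airways, arteries and skin. They are built when tropoelastin, the Eln product, is laid onto a scaffold of fibrillin microfibrils, is brought into register by fibulins and is cross-linked through its lysines by lysyl oxidases. In the developing lung, PDGF-A from the epithelium acts on mesenchymal cells that carry PDGFRα, and these give rise to the myofibroblasts that deposit elastin, while PDGFRβ marks pericytes and smooth muscle precursors.

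Promoter windows of 300 bases, from 250 bases upstream to 50 downstream of a RefSeq gene start, could be read for 4 of the 10 genes: Fbn1, Fbln5, Pdgfa and Pdgfra. The sequences were those of RefSeq for GRCm38.p6 and were placed on GRCm39 by exact match. Eln, Fbn2, Mfap4, Lox, Loxl1 and Pdgfrb had no entry. The windows of the 2 Fbln5 starts are given first, because Fbln5 spanned the widest range of levels of these 4 genes, followed by Fbn1 and Pdgfra, which spanned less. Capitals mark matches to the GC box GGGCGG, to the homeodomain core TAAT and to the SMAD element CAGAC. Both strands were searched, and a match on the opposite strand is in capitals as its reverse complement. The TATA box TATAAA and the CArG box were searched as well.
Fbln5, upstream start, chr12:101785329-101785628, minus strand: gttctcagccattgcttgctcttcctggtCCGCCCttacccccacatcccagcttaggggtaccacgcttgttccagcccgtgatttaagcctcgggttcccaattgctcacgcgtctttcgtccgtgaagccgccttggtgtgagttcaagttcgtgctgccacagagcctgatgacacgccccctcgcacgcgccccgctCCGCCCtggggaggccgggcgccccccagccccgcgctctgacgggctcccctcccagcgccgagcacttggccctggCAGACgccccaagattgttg
Fbln5, downstream start, chr12:101784694-101784993, minus strand: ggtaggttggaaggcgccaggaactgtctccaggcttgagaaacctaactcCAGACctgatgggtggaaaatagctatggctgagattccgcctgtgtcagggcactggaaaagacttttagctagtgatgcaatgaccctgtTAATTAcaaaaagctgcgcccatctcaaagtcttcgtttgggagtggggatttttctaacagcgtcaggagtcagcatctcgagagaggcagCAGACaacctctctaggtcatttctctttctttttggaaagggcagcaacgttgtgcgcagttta
Fbn1, chr2:125348309-125348608, minus strand: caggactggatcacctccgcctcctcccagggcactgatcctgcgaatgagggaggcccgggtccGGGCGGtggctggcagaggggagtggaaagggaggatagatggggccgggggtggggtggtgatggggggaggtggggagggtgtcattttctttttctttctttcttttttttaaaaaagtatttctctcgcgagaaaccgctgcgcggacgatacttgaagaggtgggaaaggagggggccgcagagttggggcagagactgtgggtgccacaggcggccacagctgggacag
Pdgfra, chr5:75312662-75312961, plus strand: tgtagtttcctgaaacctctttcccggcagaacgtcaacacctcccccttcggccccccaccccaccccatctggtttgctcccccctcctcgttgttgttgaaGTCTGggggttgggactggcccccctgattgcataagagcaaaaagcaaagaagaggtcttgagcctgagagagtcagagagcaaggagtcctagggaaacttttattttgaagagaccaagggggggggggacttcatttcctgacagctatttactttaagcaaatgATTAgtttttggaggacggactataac

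The 2 Fbln5 windows differed in composition, with 65.7% G and C at the upstream start and 48.7% at the downstream one. The upstream window held 2 matches to GGGCGG and 1 to CAGAC. The downstream window held 2 overlapping matches to TAAT, 1 on each strand, and 2 matches to CAGAC. Fbn1 held 1 GGGCGG, and Pdgfra held 1 TAAT and 1 CAGAC. The 2 Pdgfa windows, of 67.0% and 73.3% G and C, held no TAAT or CAGAC and 1 and 2 matches to GGGCGG. None of the 6 windows held TATAAA or a CArG box. Over all 32851 windows of the same length, 58.0% held TAAT, 49.6% CAGAC, 35.7% GGGCGG, 13.6% TATAAA and 1.63% a CArG box. The Fbn1 start lies 1555 bases inside the annotated 5′ end of the gene, and those of Pdgfa 3089 and 2426 bases. A match is a run of letters and not a measured site.

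Libraries held 18369905 to 72991481 counts, and the counts of a member in a library ran from 70 to 112937. Trachea, lung and diaphragm were read as 100-base single-end libraries in 1 centre and somites and iBAT as 150-base paired-end libraries in another, so that across these tables tissue and centre cannot be told apart. Levels are given in TPM, reads scaled for gene length and library total. Hoxa5 lay between 44.1 and 304 TPM in wt libraries and between 9.84 and 112 TPM in Hoxa5-/- libraries, with all Hoxa5-/- libraries below all wt libraries in 7 of 7 contexts. Marker genes went with the tissue labels. The summed TPM of 6 adipocyte markers was 14250 to 20726 in wt iBAT and 48.2 to 72.0 in wt diaphragm, the next highest tissue, and that of 7 skeletal muscle markers was 6176 to 9998 in wt diaphragm. Some libraries stood apart. Replicate 1 of the Hoxa5-/- E12.5 lung had a summed erythroid marker level of 23404 TPM against 2473 to 4344 in the other 7. Replicate 4 of the Hoxa5-/- E15.5 lung had 30.7% of its TPM in ribosomal RNA genes, against 0.717% to 1.53% in the other 7, and replicate 3 of the Hoxa5-/- trachea had a cartilage marker sum of 4051 TPM against 944 to 1667 in the other 7.

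**Figure D1:**
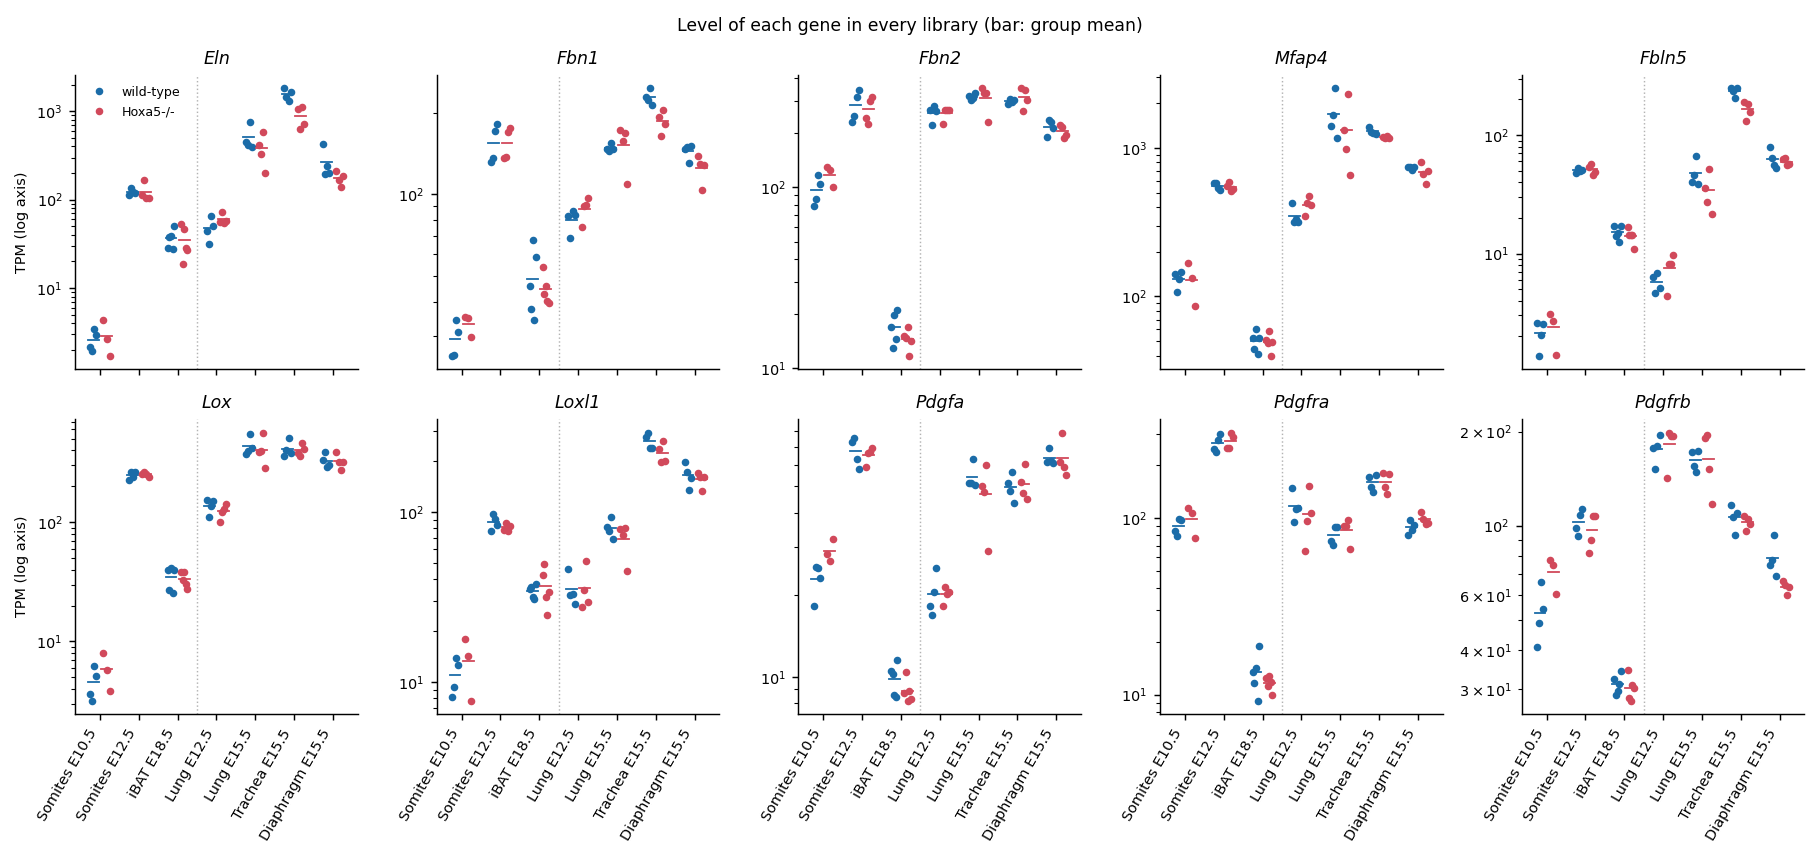
Level of each of the 10 genes in TPM (log axis) in every library, by tissue and stage, for wild-type (blue) and Hoxa5-/- (red) embryos; points are libraries, bars are group means, and the dotted line separates the table of somites and iBAT from that of lung, trachea and diaphragm. Eln ran from 1.70 TPM in a library of E10.5 somites to 1839 TPM in a wild-type trachea, and all 10 genes have their lowest wild-type mean TPM in E10.5 somites or in iBAT.

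Eln, which encodes tropoelastin (chr5:134731447-134776177, minus strand, GRCm39), spanned the widest range. In wt libraries it was at 1839, 1468, 1324 and 1665 TPM in trachea. In E15.5 lung it was at 446, 413, 767 and 397 TPM, and in diaphragm at 429, 197, 238 and 199 TPM. All 4 tracheas lay above every lung and diaphragm, whereas the ranges of lung and diaphragm overlapped. E12.5 somites, at 113 to 137 TPM, lay below diaphragm and above E12.5 lung, at 31.1 to 64.7 TPM, which overlapped iBAT, at 27.3 to 50.4 TPM. E10.5 somites were lowest, at 2.13, 1.92, 3.39 and 2.93 TPM. The mean wt level in trachea, 1574 ± 225 TPM (SD, n = 4), was 607 times that in E10.5 somites.

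The scaffold genes were spread over a narrower range. Fbn1 (chr2:125142514-125349913, minus strand) and Fbn2 (chr18:58141695-58343559, minus strand) encode fibrillins, and fibrillin-2 is known mainly from embryonic tissue. The highest wt mean was 7.84 times the lowest for Fbn1, between trachea (227 ± 14.2 TPM) and E10.5 somites (29.01 ± 4.46 TPM). For Fbn2 it was 18.6 times the lowest, between E15.5 lung (316 ± 11.7 TPM) and iBAT (16.98 ± 3.33 TPM). In the order E15.5 lung, trachea, E12.5 somites, E12.5 lung and diaphragm the wt range of Fbn2 in each overlapped that in the next. Mfap4 (chr11:61376257-61379726, plus strand), a microfibril-associated glycoprotein that binds elastin and fibrillin, was the most abundant member in E15.5 lung. It reached 1411, 1670, 2529 and 1169 TPM there and 1383, 1277, 1264 and 1241 TPM in trachea, with overlapping ranges, and was at 41.1 to 60.1 TPM in iBAT.

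Of the genes of assembly and cross-linking, Fbln5 (chr12:101712824-101785314, minus strand), which tethers tropoelastin to microfibrils and cells, spanned 110-fold between wt means. It was at 249, 237, 207 and 250 TPM in trachea, at 52.9 to 79.5 TPM in diaphragm and at 1.36 to 2.57 TPM in E10.5 somites. Lox (chr18:52649139-52662939, minus strand) and Loxl1 (chr9:58195021-58220469, minus strand) encode lysyl oxidases. Lox spanned 95.9-fold and was highest in E15.5 lung, at 372 to 553 TPM, where it overlapped trachea, at 359 to 504 TPM. Loxl1 spanned 23.8-fold and was highest in trachea, at 276, 292, 237 and 238 TPM, above all 4 diaphragms, at 134 to 197 TPM.

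The PDGF genes had another order. Pdgfa (chr5:138961769-138983125, minus strand), the ligand, was at 58.1 to 75.3 TPM in wt E12.5 somites, which overlapped diaphragm, at 60.9 to 69.0 TPM, and was lowest in iBAT, at 8.46 to 11.6 TPM. Pdgfra (chr5:75312953-75358876, plus strand), the receptor for PDGF-A, was highest in E12.5 somites, at 248, 238, 278 and 299 TPM, above the libraries of all other contexts. Pdgfrb (chr18:61178222-61218133, plus strand), which binds PDGF-B and PDGF-D, was highest in E12.5 lung, at 177, 152, 180 and 196 TPM, where it overlapped E15.5 lung, at 148 to 173 TPM. In TPM both receptors were lowest in iBAT, where mitochondrial genes took 21.9% to 26.3% of TPM in wt libraries. For Pdgfrb this order depends on the scale. By edgeR Pdgfrb was at -0.52 in wt iBAT against E12.5 somites, a smaller change than its rise between somite stages, given below. For Pdgfa this fall and rise were of nearly equal size, and for Pdgfra the fall was larger than the rise. Among the 10 genes the highest wt mean TPM was in trachea for 4 genes, in E15.5 lung for 3, in E12.5 somites for 2 and in E12.5 lung for 1. The lowest mean TPM was in E10.5 somites for 5 and in iBAT for 5. Levels of different tables are given side by side and were not tested.

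Some reads could belong to a neighbour. Exons of lncRNA genes on the opposite strand cover 20.1% of the counted exon bases of Fbn1 (Gm9913) and 26.1% of those of Pdgfa (6330403L08Rik). The part shared with any other gene was 6.50% for Pdgfra, 4.63% for Mfap4 (with Mapk7), 3.30% for Eln and 0.628% for Lox. Whether counting used strand is not given in the sources used here, so reads of these parts cannot be told apart. How reads over several genes were handled is not given either, so such reads may have been added to a gene or left out.

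The lung stages ask how the genes change from E12.5, when the airways branch, to E15.5. In wt embryos 7 of the 10 rose, against 15.4% of the 18158 genes tested that rose and 24.6% that changed. Changes are log2 fold changes of E15.5 over E12.5 with standard errors, called at an adjusted p under 0.05 with at least a 1.5-fold change. Eln rose by 3.38 ± 0.26 (10.4-fold, adjusted p = 5.49e-06), from 43.9, 31.1, 64.7 and 50.4 TPM, and all E15.5 libraries lay above all E12.5 libraries. Fbln5 rose by 3.03 ± 0.19 (8.18-fold, adjusted p = 1.94e-06), with 4.60 to 6.86 TPM at E12.5 and 38.6 to 66.9 TPM at E15.5. Mfap4 rose by 2.25 ± 0.22, Lox by 1.63 ± 0.14, Pdgfa by 1.40 ± 0.12, Loxl1 by 1.16 ± 0.15 and Fbn1 by 0.84 ± 0.06. Fbn2, at 0.26 ± 0.07, and the receptors Pdgfra, at -0.57 ± 0.13, and Pdgfrb, at -0.15 ± 0.07, were not called. Pdgfra had an adjusted p of 0.00405 and missed the fold minimum. It passed without E12.5 replicate 2 (-0.65), 3 (-0.60) or 4 (-0.59) or without E15.5 replicate 3 (-0.63) or 4 (-0.62). The median log2 fold change was 1.28 over the members and -0.01 over all genes tested. Between the same stages the summed TPM of 8 smooth muscle and myofibroblast markers went from 933 to 1308 to 1713 to 2288, and that of 7 epithelial markers from 685 to 773 to 3994 to 9771. Their part in the result was not tested.

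**Figure D2:**
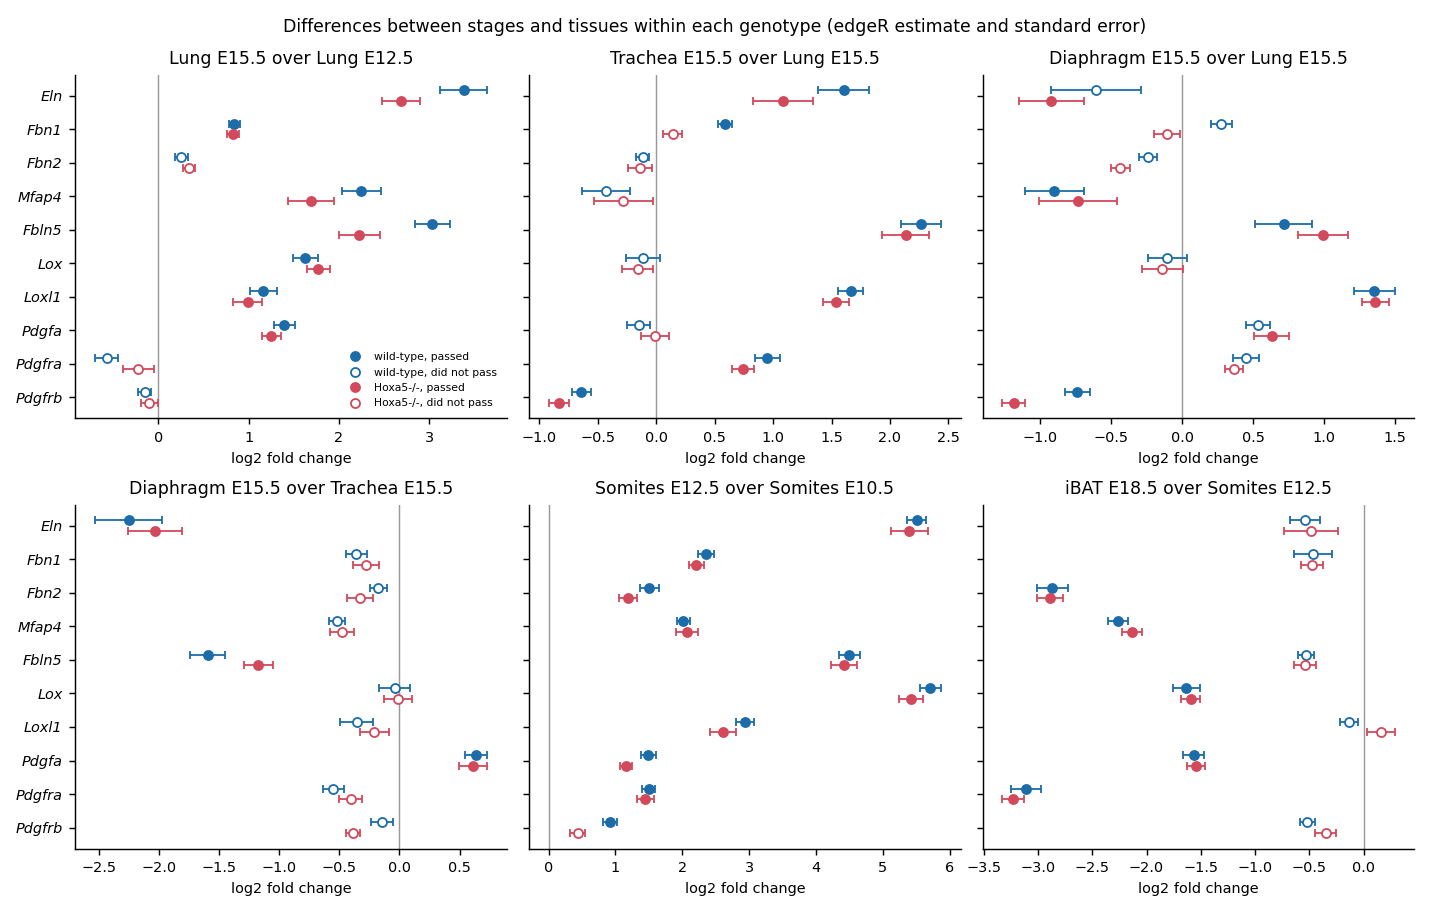
Log2 fold change of each gene between stages or tissues within wild-type (blue) and Hoxa5-/- (red) embryos, edgeR estimate with its standard error; filled points passed the threshold and open points did not. In somites all 10 genes lie above 0 in both genotypes, and in lung Eln, Fbln5 and Mfap4 have the 3 highest wild-type values.

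All 10 genes rose in wt somites between E10.5 and E12.5, against 24.1% of the 19773 genes tested that rose and 42.6% that changed. Lox rose by 5.71 ± 0.16 (52.4-fold, adjusted p = 1.09e-11), from 3.61, 3.18, 6.26 and 5.13 TPM to 227, 262, 238 and 262 TPM. Eln rose by 5.51 ± 0.14 (45.5-fold, adjusted p = 5.70e-12) and Fbln5 by 4.50 ± 0.16. These 3 genes were at a few TPM at E10.5, and no library of one stage overlapped the other. Loxl1 rose by 2.94 ± 0.13, Fbn1 by 2.36 ± 0.12, Mfap4 by 2.01 ± 0.10, Fbn2 by 1.504 ± 0.14 and Pdgfra by 1.497 ± 0.10. Pdgfa rose by 1.49 ± 0.11 and Pdgfrb, the least, by 0.92 ± 0.10 (1.89-fold, adjusted p = 3.97e-06). The median over the members was 2.19 and over all genes tested -0.04. The summed fibroblast markers went from 1306 to 1420 to 6264 to 7324 TPM, the smooth muscle markers from 285 to 304 to 1120 to 1253 and the cartilage markers from 243 to 371 to 1870 to 2649. Their part in the result was not tested.

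The 3 comparisons among E15.5 tissues share libraries, so each is given by its own values. In wt trachea against wt lung, 6 of the 10 genes were called, against 30.2% of 19340 genes, 5 of them higher in trachea (20.1% of all genes). Fbln5 was higher by 2.27 ± 0.17, Loxl1 by 1.66 ± 0.11, Eln by 1.60 ± 0.22 (3.04-fold, adjusted p = 2.88e-04) and Pdgfra by 0.95 ± 0.11. Fbn1 was higher by 0.59 ± 0.06, just above the 1.5-fold minimum. It fell below the minimum with DESeq2 (0.58), with DESeq2 size factors (0.58), with a count minimum of 10 (0.58), without trachea replicate 3 (0.56) and without lung replicate 2 (0.58). Pdgfrb was the only member called lower (10.1% of all genes), at -0.64 ± 0.08, and lost its call without trachea replicate 3 (-0.57). Pdgfra lay at 171, 151, 140 and 177 TPM in trachea and at 74.1, 70.4, 89.5 and 88.9 TPM in lung, and Pdgfrb at 93.3 to 117 against 148 to 173 TPM, so the receptors differed in opposite directions with no overlap for either. The median of the members was 0.24 and of all genes 0.02. The summed fibroblast markers were at 8453 to 10062 TPM in trachea and 3434 to 3625 TPM in lung, and the cartilage markers at 1172 to 1654 and 105 to 145 TPM. Their part was not tested.

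In wt diaphragm against wt lung 4 of the 10 were called, 2 in each direction, against 36.4% of 18984 genes (20.9% higher and 15.6% lower), a share near the background. With no fold minimum 8 were called, against 58.7% of all genes. Loxl1 was higher by 1.35 ± 0.14 and Fbln5 by 0.71 ± 0.20, whereas Mfap4 was lower at -0.90 ± 0.21 and Pdgfrb at -0.74 ± 0.08. Diaphragm replicate 1 had the highest Eln (429 TPM) and Fbln5 (79.5 TPM) of the 4. Without it the Fbln5 difference was 0.55 and not called, and Eln, not called at -0.61 ± 0.31, was called at -0.98. Pdgfa, at 0.53 ± 0.08, passed without lung replicate 3 (0.61). The median of the members was 0.08 and of all genes -0.01. The summed fibroblast markers were at 8404 to 10859 TPM in diaphragm and 3434 to 3625 TPM in lung, hepatocyte markers at 1573 to 8923 and 4.61 to 43.3 TPM, skeletal muscle markers at 6176 to 9998 and 5.31 to 16.9 TPM and epithelial markers at 34.3 to 619 and 3994 to 9771 TPM. Their part was not tested.

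In wt diaphragm against wt trachea 3 of the 10 were called, against 32.5% of 19730 genes (14.1% higher and 18.4% lower), again near the background. With no fold minimum 6 were called, against 49.0% of all genes. Eln was lower at -2.25 ± 0.28 (4.77-fold, adjusted p = 2.11e-04) and Fbln5 at -1.60 ± 0.14, with no overlap in either case. Pdgfa was higher by 0.64 ± 0.09 and lost its call without trachea replicate 4 (0.57), while Pdgfra, at -0.55 ± 0.09, passed without trachea replicate 3 (-0.60). The median of the members was -0.36 and of all genes -0.04. The skeletal muscle marker sum was 6176 to 9998 TPM in wt diaphragm against 206 to 343 in wt trachea, and hepatocyte markers were at 1573 to 8923 against 7.04 to 53.2 TPM. Their part in these differences was not tested.

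In wt iBAT against wt E12.5 somites, 5 of the 10 genes were lower. None was higher by edgeR or DESeq2, and 0 had a higher estimate with an unadjusted p under 0.05. Here 66.3% of 19369 genes were called and 35.3% were lower, and the median was -1.05 over the members and -0.16 over all genes. Pdgfra was lower at -3.11 ± 0.14 (8.64-fold, adjusted p = 1.47e-11), with 13.4, 11.6, 14.1, 9.24 and 18.8 TPM in iBAT. Fbn2 was lower at -2.87 ± 0.15, Mfap4 at -2.27 ± 0.09, Lox at -1.63 ± 0.12 and Pdgfa at -1.56 ± 0.10. Eln, at -0.54 ± 0.13, and Fbn1, at -0.47 ± 0.17, missed the fold minimum. Eln passed with a replicate block (-0.65) and without E12.5 somite replicate 1 (-0.59) or iBAT replicate 3 (-0.59), and Fbn1 passed without iBAT replicate 3 (-0.64). Mitochondrial genes took 21.9% to 27.1% of TPM in iBAT. The TPM values differed more than the edgeR estimates. In TPM Eln was at 113 to 137 in wt E12.5 somites and 27.3 to 50.4 in wt iBAT, with no overlap. Fbn1 was at 132 to 181 and 34.1 to 67.7 TPM, also with no overlap. The size of a difference in this contrast therefore depends on the scale. From wt somites to wt iBAT the summed fibroblast markers went from 6264 to 7324 to 1536 to 2307 TPM and the smooth muscle markers from 1120 to 1253 to 110 to 181 TPM. Cartilage markers went from 1870 to 2649 to 1.71 to 3.92 TPM and adipocyte markers from 7.35 to 8.76 to 14250 to 20726 TPM. The part of these in the lower levels was not tested.

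The same contrasts within Hoxa5-/- embryos, which use no wt library, called 35 of 60 member differences, as did those in wt embryos. Both called 33 of them, in the same direction. All genes were called at 20% in lung stages, 27.1% in trachea against lung, 36.2% in diaphragm against lung, 35.8% in diaphragm against trachea, 36.9% in somite stages and 65.7% in iBAT against somites. Fbn1 in trachea against lung (0.14 ± 0.08 in Hoxa5-/- embryos) and Pdgfrb in somite stages (0.43 ± 0.11) were called in wt embryos and not in Hoxa5-/- embryos. Eln (-0.92 ± 0.23) and Pdgfa (0.63 ± 0.12) in diaphragm against lung were called in Hoxa5-/- and not in wt embryos, and Pdgfa lost its call without Hoxa5-/- lung replicate 4 (0.56) or diaphragm replicate 2 (0.54). Mfap4 in the same contrast was at -0.73 ± 0.28 with an adjusted p of 0.0461 in Hoxa5-/- embryos. It lost its call with DESeq2 (-0.70), with a replicate block (-0.63) and in 6 of 8 fits that left out 1 library, all but those without lung replicate 2 or 4, the smallest difference being -0.37 without lung replicate 3. In diaphragm against trachea Pdgfa (0.61 ± 0.12) lost its call without trachea replicate 2 (0.57) or 4 (0.55) or diaphragm replicate 2 (0.52). In iBAT against somites Eln (-0.49 ± 0.25) passed without iBAT replicate 1 (-0.67) or 3 (-0.63), and Fbln5 (-0.54 ± 0.10) without iBAT replicate 1 (-0.59). Interaction tests of these genotype differences are given after the genotype comparisons.

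Other genes of the pathway were taken from lists of 26 genes of elastic fibre assembly, 4 further PDGF genes, 8 of TGF-β signalling, which drives matrix synthesis, and 11 of elastin breakdown and its inhibitors. In wt somites 23 of the 26 assembly genes rose (median 2.18), against 24.1% of all genes, while 18.4% of all genes fell. No assembly gene fell by edgeR or DESeq2, and 1, Mfap3, named after its value was seen, had a lower estimate with an unadjusted p under 0.05. There was also a rise of 7 of 8 TGF-β genes, 3 of 4 PDGF genes and all 8 breakdown genes tested. Mmp9, a gelatinase, rose by 4.91 ± 0.25 and Mfap5, a microfibril protein, by 4.34 ± 0.37. In wt lung 10 assembly genes rose and 3 fell between stages (median 0.29), against 15.4% of all genes that rose and 9.15% that fell. Ltbp2, a latent TGF-β binding protein of the fibrillin superfamily, rose by 5.13 ± 0.22, with 0.931 to 1.29 TPM at E12.5 and 30.6 to 56.4 TPM at E15.5, and Adamts17 by 2.08 ± 0.15. Ltbp1, at -1.04 ± 0.13, and Emilin3, at -1.01 ± 0.18, fell. Of the remaining lists in lung, 2 PDGF genes, 3 TGF-β genes and 1 of 7 breakdown genes rose. Of these 1 PDGF and 1 TGF-β gene fell, and 0 breakdown genes fell by edgeR or DESeq2, with 1 at an unadjusted p under 0.05.

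In trachea against lung 16 assembly genes were higher (median 0.91), against 20.1% of all genes higher and 10.1% lower. None was lower by edgeR or DESeq2, and 1, Mfap3 again, had a lower estimate with an unadjusted p under 0.05. The largest differences were those of Mfap5, higher by 4.26 ± 0.34, and Fbln2, a fibulin, by 4.02 ± 0.14. The ligands Pdgfb, at -1.53 ± 0.13, and Tgfb2, at -1.38 ± 0.12, were lower in trachea. Against lung, diaphragm had 10 assembly genes higher and 5 lower (median 0.26), against 20.9% of all genes higher and 15.6% lower. The cathepsin gene Ctsk was higher by 4.15 ± 0.21, and Adamtsl2 (-1.55 ± 0.18) and Adamts17 (-1.34 ± 0.13) were lower. The neutrophil elastase gene Elane was higher in diaphragm than in lung by 5.59 ± 1.10 and than in trachea by 5.29 ± 1.10, at uneven levels of 1.25 to 13.9 TPM. Against trachea, diaphragm had 2 assembly genes higher and 13 lower (median -0.62), against 14.1% of all genes higher and 18.4% lower. Lower were Ltbp2, at -2.28 ± 0.31 and Loxl4, a lysyl oxidase, at -2.25 ± 0.46, and Ctsk was higher by 1.20 ± 0.18. In iBAT against E12.5 somites 4 assembly genes were higher and 19 lower (median -1.89), against 31% of all genes higher and 35.3% lower. Ltbp2 (4.55 ± 0.17) and Mfap5 (3.01 ± 0.18) were among the higher and Emilin3 (-5.71 ± 0.15) among the lower, and Tgfb2 was lower at -4.91 ± 0.10.

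The genotype comparison asks which genes respond to the loss of Hoxa5 in each tissue. With edgeR none of the 70 member tests, 10 genes in 7 contexts, was called, and 10 had an unadjusted p under 0.05. DESeq2 with the same threshold, the tool and rule given in the authors' methods, called 1, Eln in trachea. The share of all genes called by edgeR was itself small, at 0.0156% in trachea, 0.0798% in E12.5 lung, 0.124% in E15.5 lung, 0.594% in diaphragm, 0.0215% in E10.5 somites, 0.00529% in E12.5 somites and 0.00657% in iBAT.

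**Figure D3:**
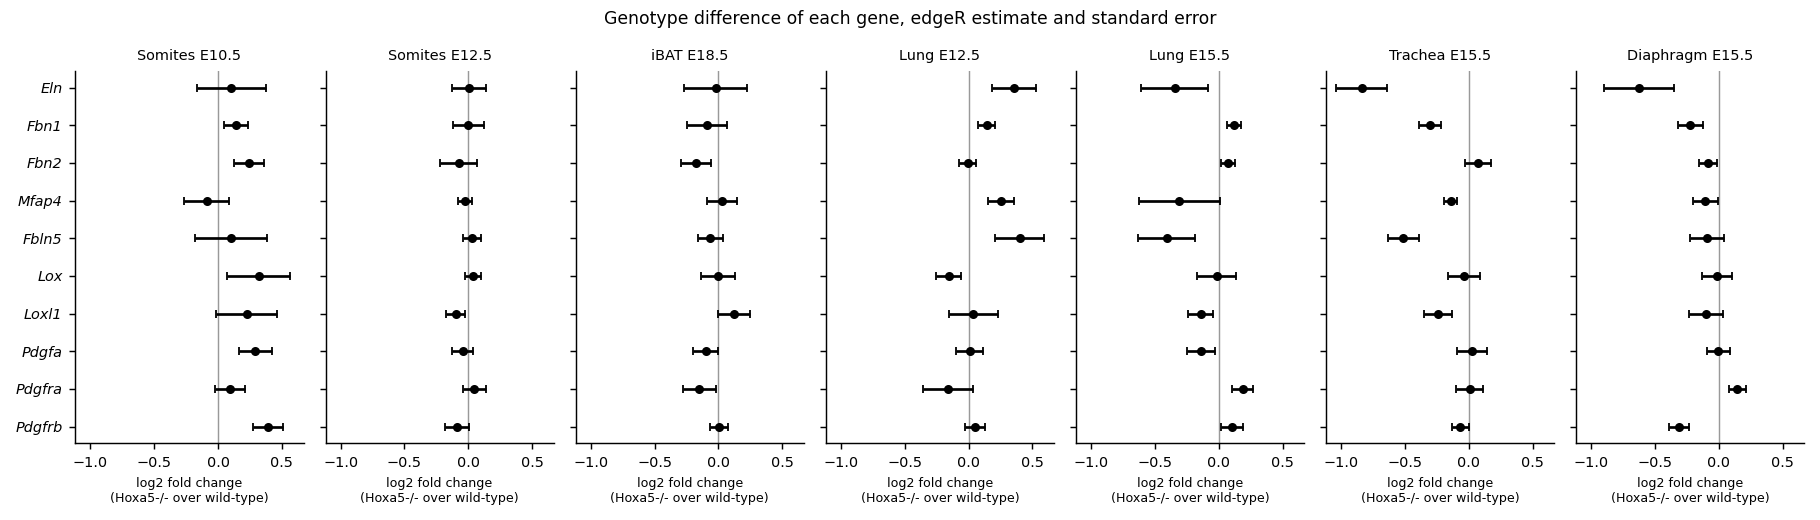
Log2 fold change of each gene, Hoxa5-/- over wild-type, in each tissue and stage, edgeR estimate with its standard error; none passed the threshold. The lowest points are Eln in trachea, at -0.84, and Eln in diaphragm, at -0.63, and in E12.5 somites all 10 genes lie between -0.10 and 0.05.

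In trachea 4 of the 10 genes had an unadjusted p under 0.05, all with lower estimates in Hoxa5-/- embryos, against 6.70% of 19220 genes in either direction and 3.64% lower. DESeq2 called 0.271% of all genes there. Eln was at 1062, 630, 1128 and 716 TPM in Hoxa5-/- trachea and at 1324 to 1839 TPM in wt trachea, so that all 4 Hoxa5-/- libraries lay below all 4 wt libraries. The log2 fold change was -0.84 ± 0.20, a 1.79-fold lower level, with an adjusted p of 0.602 by edgeR and 0.0119 by DESeq2. It lay between -0.97 and -0.70 when any 1 library was left out, and was -0.97 without Hoxa5-/- replicate 3, the library with the high cartilage markers. Fbln5 was at 191, 132, 185 and 156 TPM against 207 to 250 TPM, at -0.51 ± 0.12 (adjusted p = 0.602 by edgeR and 0.0300 by DESeq2, below the fold minimum). Fbn1, at 192, 164, 205 and 181 TPM against 213 to 247 TPM, gave -0.30 ± 0.09, and Mfap4, at 1159 to 1206 TPM against 1241 to 1383 TPM, gave -0.14 ± 0.05. These 4 were the members whose groups did not overlap, and 1.93% of all genes had all Hoxa5-/- libraries below all wt libraries. Loxl1 was at -0.24 ± 0.11 with overlapping ranges, and Fbn2, Lox, Pdgfa, Pdgfra and Pdgfrb lay between -0.07 and 0.07. The median was -0.10 over the members and 0.00 over all genes. Summed over the 10 genes, Hoxa5-/- trachea held 3199 to 4090 TPM and wt trachea 4367 to 4963 TPM. Most of this gap was that of Eln, at a mean of 884 TPM in Hoxa5-/- and 1574 TPM in wt trachea, so the sum is not a separate result.

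Of the 8 smooth muscle and myofibroblast markers 0 of 8 were called in trachea by edgeR or DESeq2, 2 had an unadjusted p under 0.05, and 8 of 8 had lower estimates in Hoxa5-/- embryos, with a median of -0.41. None of the 13 marker list sums separated the genotypes in trachea. The summed TPM of the smooth muscle list was 2560 to 3496 in Hoxa5-/- and 2807 to 5120 in wt trachea, and overlapped. Acta2 was at 811 to 1065 against 835 to 1385 TPM and Myh11 at 119 to 254 against 135 to 287 TPM, whereas Tagln, which marks the same cells, was listed at only 2.37 to 4.53 against 2.68 to 4.77 TPM. The 7 fibroblast markers summed to 7954 to 9284 and 8453 to 10062 TPM and the 6 pericyte markers to 203 to 266 and 254 to 260 TPM. The pericyte gene Rgs5 was at -0.78 ± 0.17, called by DESeq2 (adjusted p = 0.00959) and not by edgeR (adjusted p = 0.550). Cartilage markers were at 944 to 4051 against 1172 to 1654 TPM and skeletal muscle markers at 56.6 to 1213 against 206 to 343 TPM. The part of these cells in the lower Eln, Fbln5, Fbn1 and Mfap4 values was not tested.

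In diaphragm 1 member had an unadjusted p under 0.05, against 13% of all genes, and DESeq2 called 0 members and 2.25% of all genes. That member was Pdgfrb, at 66.2, 64.6, 59.8 and 63.6 TPM in Hoxa5-/- and 74.7, 77.9, 93.4 and 68.9 TPM in wt diaphragm, all Hoxa5-/- libraries being lower. No overlap in this direction was found for 4.91% of all genes. The log2 fold change was -0.31 ± 0.08 (adjusted p = 0.139 by edgeR and 0.0149 by DESeq2, below the fold minimum). Eln was at 210, 166, 138 and 186 TPM against 429, 197, 238 and 199 TPM, which overlapped, at -0.63 ± 0.28 (adjusted p = 0.386). This value rested on wt replicate 1, without which it was -0.25. Hoxa5-/- replicate 1, at 210 TPM, was also the highest of its group. The median was -0.10 over the members and 0.00 over all genes.

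Among the cell type markers in diaphragm, the 6 pericyte markers summed to 156 to 199 TPM in Hoxa5-/- and 213 to 245 TPM in wt embryos, with no overlap. Of the 8 smooth muscle markers 4 fell, against 0.594% of all genes called in either direction. They were Cnn1 (-3.30 ± 0.43), Myh11 (-4.34 ± 0.46), Actg2 (-4.63 ± 0.56) and Myocd (-2.73 ± 0.33), and the sum was 2005 to 3089 against 2725 to 4608 TPM. Acta2, 1 of the 8 markers, was at 884 to 1243 against 1031 to 1421 TPM. Des is also in this list, so in a tissue with skeletal muscle the sum is not one of smooth muscle alone. The neural markers, the other of 13 lists whose sums did not overlap and of which 5 of 5 tested fell, summed to 8.49 to 12.3 TPM against 33.9 to 73.8 TPM. Among these were Sox10 (-1.77 ± 0.20), Tubb3 (-2.85 ± 0.35), Stmn2 (-3.20 ± 0.27) and Prph (-2.12 ± 0.29). Among the 7 fibroblast markers 1, Tcf21, fell (-3.55 ± 0.56), and their sums overlapped at 7823 to 11121 against 8404 to 10859 TPM. Blood endothelium sums overlapped only slightly, at 213 to 298 TPM in Hoxa5-/- against 297 to 380 TPM in wt diaphragm. Myh11, Sox10 and Stmn2 kept their calls when any 1 library was left out. Actg2 lost its call without Hoxa5-/- replicate 1 (-4.61) or wt replicate 1 (-4.52), at adjusted p-values of 0.0525 to 0.0619 by edgeR. Tubb3 lost its call without Hoxa5-/- replicate 2 (-2.87) or wt replicate 1 (-2.88), at adjusted p-values of 0.0525 to 0.0591 by edgeR. Myocd lost its call without Hoxa5-/- replicate 1 (-2.68) or 2 (-2.71) or wt replicate 1 (-2.73), at adjusted p-values of 0.0525 to 0.0619 by edgeR. Cnn1 lost its call without Hoxa5-/- replicate 1 (-3.43), 2 (-3.23) or 3 (-3.13) or wt replicate 1 (-3.19), at adjusted p-values of 0.0515 to 0.0693 by edgeR. Prph lost its call without Hoxa5-/- replicate 1 (-2.07), 2 (-2.06) or 3 (-2.10) or wt replicate 1 (-1.97) or 2 (-2.09), at adjusted p-values of 0.0655 to 0.0936 by edgeR. Tcf21 lost its call without Hoxa5-/- replicate 1 (-3.70), 2 (-3.44), 3 (-3.51) or 4 (-3.56) or wt replicate 1 (-3.70) or 2 (-3.40), at adjusted p-values of 0.0812 to 0.125 by edgeR. DESeq2 alone called Myl9, Rgs5, Kcnj8, Cldn5, Epcam, Krt5 and Krt19 lower. The genotypes overlapped for Epcam, Krt5 and Krt19, and epithelial markers summed to 619 TPM in wt replicate 3 against 22.99 to 180 TPM in the other 7. Without that library Epcam was at -2.38, in place of -3.65. Cartilage markers summed to 378 TPM in Hoxa5-/- replicate 3 against 17.03 to 35.2 TPM in the other 7, and without that library Pdgfrb was at -0.28 and Eln at -0.52. The part of the other cell types in the Pdgfrb and Eln values was not tested.

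In E15.5 lung 2 members had an unadjusted p under 0.05, Fbn1 (0.12 ± 0.05) and Pdgfra (0.19 ± 0.08), against 6.32% of all genes, and DESeq2 called 0 members and 0.467% of all genes. Pdgfra was at 91.0, 89.8, 97.3 and 66.5 TPM in Hoxa5-/- and 70.4 to 89.5 TPM in wt lung. The lowest Hoxa5-/- value was that of replicate 4, the library with the ribosomal RNA. Eln was at 417, 328, 588 and 200 TPM against 446, 413, 767 and 397 TPM, at -0.34 ± 0.26, and Fbln5 was at -0.41 ± 0.22 (adjusted p = 0.867). Without wt replicate 3, the highest library for both genes, they were at -0.06 and -0.19, and without Hoxa5-/- replicate 4 at -0.21 and -0.34. Hoxa5-/- replicate 3 was also the highest of its group for both genes, with Eln at 588 TPM. Over genes the replicate 3 libraries of both genotypes deviated together (correlation of 0.470). Leaving out only the wt library is thus one-sided. Blood endothelium markers, the only 1 of 13 lists whose sums did not overlap, were at 515 to 890 TPM in Hoxa5-/- and 978 to 1196 TPM in wt lung, and their part was not tested. The median was -0.08 over the members and -0.01 over all genes.

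In E12.5 lung 1 member, Mfap4 at 0.26 ± 0.10, had an unadjusted p under 0.05, against 8.01% of all genes, and DESeq2 called 0 members and 0.462% of all genes. Eln was at 56.1, 72.0, 54.5 and 57.9 TPM in Hoxa5-/- and 31.1 to 64.7 TPM in wt lung, at 0.36 ± 0.17 (adjusted p = 0.639), and Fbln5 was at 0.40 ± 0.19. Without Hoxa5-/- replicate 1, the library with the erythroid markers, these were 0.34 and 0.56. The median was 0.04 over the members and 0.00 over all genes. Of the 13 marker lists 2 had sums that did not overlap, cartilage at 196 to 224 TPM in Hoxa5-/- against 155 to 178 TPM in wt and mesothelium at 138 to 157 against 163 to 199 TPM, and their part was not tested. Among the marker lists Col9a1, a cartilage collagen gene, rose in Hoxa5-/- E12.5 lung (1.17 ± 0.08), and Krt19 was called lower by DESeq2 alone (-0.69).

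In E10.5 somites Pdgfrb was at 77.6, 74.9 and 60.2 TPM in Hoxa5-/- and 40.9, 48.8, 65.8 and 53.9 TPM in wt embryos, which overlapped, at 0.39 ± 0.12 (unadjusted p = 0.00711 and adjusted p = 0.391 by edgeR), and Pdgfa was at 0.29 ± 0.13. These 2 members had an unadjusted p under 0.05, against 12.7% of all genes, and DESeq2 called 0 members and 0.0969% of all genes. The estimates of 9 of the 10 members were above 0, with a median of 0.18 against -0.01 for all genes. Epithelial markers, the only 1 of 13 lists whose sums did not overlap, were at 102 to 111 TPM in Hoxa5-/- and 59.8 to 98.6 TPM in wt embryos. Pericyte markers were at 95.5 to 129 against 75.8 to 112 TPM, smooth muscle markers at 303 to 367 against 285 to 304 TPM, blood endothelium at 256 to 286 against 195 to 257 TPM and mesothelium at 29.3 to 32.9 against 14.3 to 30.7 TPM. Their part was not tested. In E12.5 somites and in iBAT 0 of 13 marker sums separated the genotypes and 0 members had an unadjusted p under 0.05, against 3.24% and 2.47% of all genes, and DESeq2 called 0 members and 0.0106% and 0.0263% of all genes. The estimates lay between -0.10 and 0.05 in E12.5 somites and between -0.18 and 0.12 in iBAT. Of the 26 assembly, 4 PDGF, 8 TGF-β and 11 breakdown genes, 0 of those tested were called by edgeR or by DESeq2 in the 7 genotype comparisons; unadjusted p-values under 0.05 numbered at most 5 in a list and comparison.

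Whether the genotype difference itself differed between contexts was tested with an interaction term in 5 pairs of contexts. With edgeR 0 of 50 member tests passed an adjusted p of 0.05, 7 had an unadjusted p under 0.05, and DESeq2 called 1. The share of all genes that passed with edgeR was 0.0267% for lung stages, 0.00502% for trachea against lung, 0.730% for diaphragm against lung, 0.439% for diaphragm against trachea and 0.0147% for somite stages. In the same order 5.25%, 5.04%, 8.46%, 9.07% and 14.3% had an unadjusted p under 0.05, and DESeq2 called 0.0961%, 0.296%, 1.61%, 1.86% and 0.0833%. Fbn1 had the smallest p, with a genotype difference of -0.43 ± 0.10 in trachea relative to lung (adjusted p = 0.314 by edgeR and 0.00967 by DESeq2). For Fbn1 in diaphragm relative to lung it was -0.35 ± 0.12, with an adjusted p of 0.330, and of 0.0193 with a replicate block. Pdgfrb gave -0.42 ± 0.12 in diaphragm relative to lung (adjusted p = 0.201). Between somite stages it gave -0.48 ± 0.16 (adjusted p = 0.327), and passed at -0.57 without wt E10.5 replicate 3. For Eln the value was -0.50 ± 0.36 in trachea relative to lung and -0.28 ± 0.42 in diaphragm relative to lung, so the Eln differences between genotypes were not shown to differ among these tissues.

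Ratios of 2 members within a library do not depend on how libraries are scaled. Over wt contexts 18 of 24 ratio tests on the log2 scale passed (exact permutation test, two-sided, adjusted p = 0.0381 in each). With 4 against 4 libraries this test cannot give an exact p below 0.029, and with 5 against 4 none below 0.0159. The share of other gene pairs that would pass was not computed, while 24.6% to 66.3% of all genes were called in these contrasts. The count of 18 is therefore not shown to be particular to these members. The Fbn2 level was 3.31 ± 0.127 times that of Fbn1 in E10.5 somites and 3.21 ± 0.0276 times in E12.5 lung. The ratio was lower at the later stage in both tissues, at 1.83 ± 0.0712 in somites and 2.14 ± 0.105 in lung, and was 1.32 ± 0.106 in trachea and 0.357 ± 0.0479 in iBAT. The ratio of Pdgfrb to Pdgfra was 2.03 ± 0.296 in E15.5 lung, 0.669 ± 0.0355 in trachea and 0.388 ± 0.00818 in E12.5 somites. Loxl1 to Lox was 2.45 ± 0.327 in E10.5 somites and 0.352 ± 0.0277 in E12.5 somites, so the more abundant of these lysyl oxidase transcripts was Loxl1 at the first stage and Lox at the second. It was 0.186 ± 0.0247 in E15.5 lung and 0.645 ± 0.131 in trachea. Eln to Fbn1 ran from 0.0883 ± 0.0104 in E10.5 somites to 6.97 ± 1.25 in trachea.

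**Figure D4:**
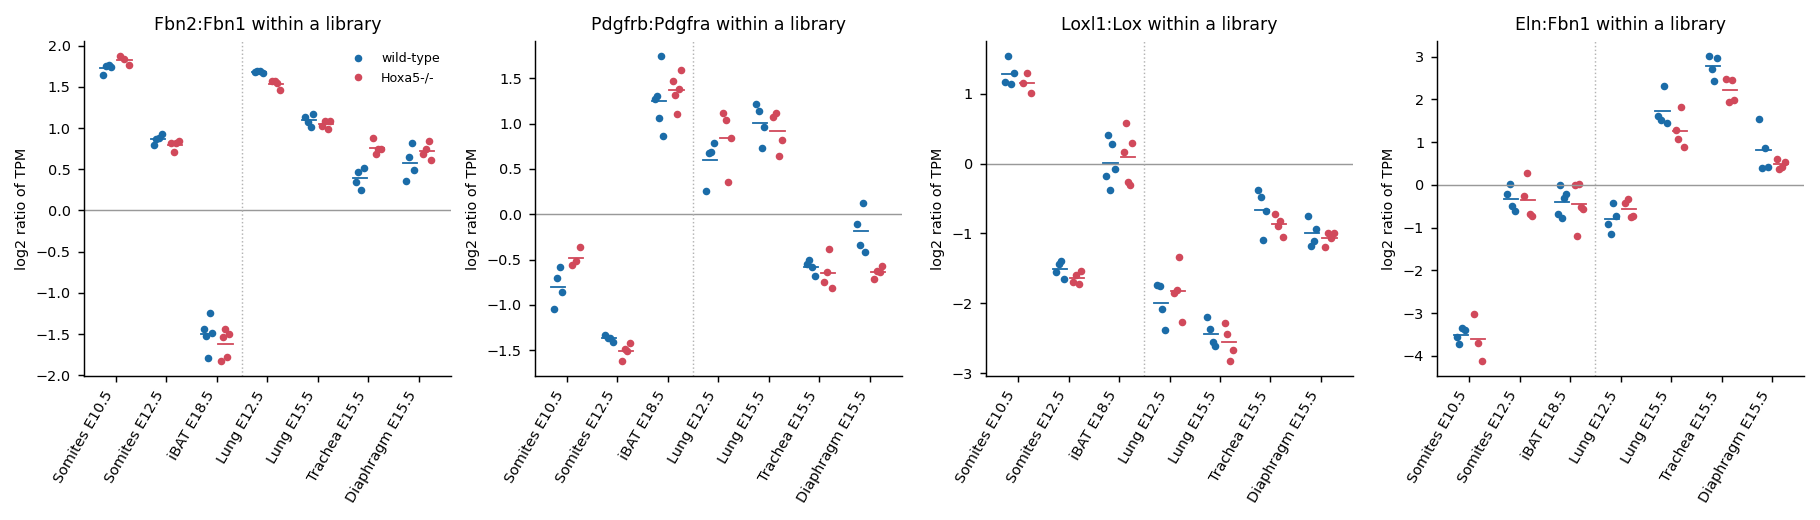
Log2 ratio of the TPM of 2 genes within each library, by tissue and stage, for wild-type (blue) and Hoxa5-/- (red) embryos; points are libraries and bars group means, and 0 marks equal levels. Loxl1 is above Lox in E10.5 somites and below it in E12.5 somites, and Pdgfrb is above Pdgfra in lung and iBAT and below it in trachea and somites.

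Between genotypes 0 of 28 ratio tests passed the same exact permutation test, and the smallest adjusted p was 0.200. The design left little room for a pass, since at least 17 of the 28 ratios would have to reach the smallest p of 4 against 4 libraries together. The smallest unadjusted exact p that 4 against 4 libraries allow, 0.029, was reached by 4 ratios, in each of which the genotypes did not overlap. They were Fbn2 to Fbn1 in trachea (0.37 ± 0.07, Hoxa5-/- minus wt on the log2 scale) and in E12.5 lung (-0.15 ± 0.03), and Pdgfrb to Pdgfra in diaphragm (-0.45 ± 0.12) and in E12.5 somites (-0.14 ± 0.04). In trachea Fbn2 to Fbn1 was 1.60 to 1.84 in Hoxa5-/- and 1.19 to 1.43 in wt embryos. In diaphragm Pdgfrb to Pdgfra was 0.612 to 0.675 in Hoxa5-/- and 0.752 to 1.09 in wt embryos. How often other gene pairs separate the genotypes in this way was not computed.

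The patterns of the members were compared over the 14 groups on the log2(mean TPM + 1) scale. The Pearson correlation was 0.97 between Fbln5 and Loxl1, 0.96 between Fbn1 and Lox and 0.94 between Eln and Fbn1, but 0.19 between Fbln5 and Pdgfrb and 0.30 between Eln and Pdgfra. Fbn2 was at 0.90 with Mfap4 and at 0.90 with Pdgfra. The 14 groups are 2 genotypes of 7 contexts in 2 tables, so the coefficients are descriptions. Among 23489 genes the 2 patterns most like that of Eln were Tbc1d8b (0.992) and Cavin3 (0.989). They were Grn (0.988) and Sumf1 (0.984) for Fbn1, Dennd5a (0.997) and Mmp11 (0.997) for Fbn2, Rassf5 (0.987) and Colec12 (0.986) for Mfap4 and Matn2 (0.987) and Cspg4 (0.985) for Fbln5. For Lox they were Cd81 (0.997) and Itpripl2 (0.986) and for Loxl1 Egr1 (0.986) and Dcaf6 (0.985). For the PDGF receptors they were Gpc3 (0.995) and Pcdhga8 (0.992) for Pdgfra and Thap4 (0.991) and Thbs1 (0.989) for Pdgfrb. With Spearman correlation 3 of the 20 nearest genes, 2 for each of the 10 members, remained.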

How the data were processed

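RNA-seq was analysed from the authors' deposited tables of raw counts and of TPM, 1 pair for 32 respiratory libraries and 1 for 25 somite and iBAT libraries. Per the labels and methods, tissues were dissected in cold saline, polyA RNA was made into TruSeq libraries and replicates were biological. Before deposit the authors used Trim Galore 0.6.5 for trimming, STAR 2.7.9a for alignment to GRCm39 and featureCounts 2.0.3 for counting on GENCODE M32 (Ensembl 109), whose Hox genes they had edited by hand. The deposited TPM values are counts divided by counted exon length and scaled to the same total in every library by the authors, so a share taken by a few genes lowers the rest.

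The members and lists were chosen with earlier results of these data known. Counts of the libraries compared were tested, for genes whose mean reached 1 TPM in a compared group, with edgeR 4.0.16 (quasi-likelihood test, TMM) in R 4.3.3, with Benjamini-Hochberg adjustment over all genes tested. A call required a 1.5-fold change besides an adjusted p under 0.05, which alone sufficed for interactions. Standard errors were the estimate divided by the square root of F. The scripts were tested on simulated data. DESeq2 1.42.0, DESeq2 size factors, other filters, a replicate block and omission of each library were alternatives. Ratios were tested with exact permutation tests in scipy 1.17.1. Named were the 10 members, list genes called between genotypes by either tool, up to 2 called list genes per direction and wt contrast, and the 2 nearest patterns per member. Some genes named by this rule are not reported here. Library totals of 18369905 to 72991481 counts set the depth. No library was identical to another, and all per-sample columns were used. Wt trachea and lung libraries of the same replicate number deviated together in 4 of 4 pairs (correlations of 0.100 to 0.429 over genes, each above 0.1). The numbers come from the labels, which do not say whether they mark a shared embryo, and the lowest pair only just passed. Diaphragms of the same number but different genotype, which are different embryos, reached 0.203 to 0.445 in 3 of 4 pairs. Shared embryos are therefore not shown. In wt trachea against lung the block called the same number of members, 6.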

Additional observations from a re-analysis of the deposited data

Results flagged for a closer look

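Of 130 groups of 4 or 5 libraries, 1 for each member in each tissue, stage and genotype of that size, 8 held a library far from the others by Dixon's criterion, where chance gives about 1 in 20, or 6.5. Eln was at 767 TPM in wt E15.5 lung replicate 3, against 397 to 446 TPM in the other 3, and at 167 TPM in Hoxa5-/- E12.5 somite replicate 2, against 105 to 113 TPM. Pdgfa was also high in wt E15.5 lung replicate 3, at 63.0 TPM against 50.7 to 51.6 TPM, and in wt diaphragm replicate 2, at 69.0 TPM against 60.9 to 61.9 TPM. In Hoxa5-/- E12.5 lung replicate 1, the library with the high erythroid markers, Fbn2 was at 224 TPM against 266 to 267 TPM and Pdgfrb at 142 TPM against 194 to 199 TPM. Fbn2 was at 230 TPM in Hoxa5-/- E15.5 lung replicate 4, the library with the ribosomal RNA, against 333 to 352 TPM. Mfap4 was at 424 TPM in wt E12.5 lung replicate 1, against 315 to 332 TPM. On the scale of normalised counts per library total (CPM), an alternative chosen after seeing the data, 7 groups held such a library. Of the 8 above 4 were among them, Eln in both groups, Pdgfa in wt E15.5 lung and Mfap4. Fbn2 in Hoxa5-/- E15.5 lung replicate 4 was then at 1134 CPM against 1108 to 1188 CPM in the other 3. The part of the marker levels in these values was not tested.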

How the results depend on the processing

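No member difference changed sign in a called value under the alternatives run. Under these, 357 summary counts stayed within 1.5 times the reported value and 10 did not. DESeq2 called 1 member between genotypes in trachea (edgeR 0) and 1 interaction of trachea against lung (edgeR 0). With no fold minimum the members called were 8 in place of 4 in wt diaphragm against lung, 6 in place of 3 in wt diaphragm against trachea, 9 in place of 5 in wt iBAT against somites, 7 in place of 3 in Hoxa5-/- diaphragm against trachea and 8 in place of 5 in Hoxa5-/- iBAT against somites. With Spearman correlation 3 of the 20 nearest genes remained. Without wt E10.5 somite replicate 3 the somite interaction called 1 member, so that leaving out each library gave 0 to 1 there and 0 to 0 in the other interactions and in all genotype comparisons. In wt embryos it gave 7 to 8 calls for lung stages, 4 to 6 for trachea against lung, 4 to 5 for diaphragm against lung, 2 to 4 for diaphragm against trachea, 10 to 10 for somite stages and 5 to 7 for iBAT against somites. In Hoxa5-/- embryos it gave 7 to 7, 5 to 5, 4 to 6, 2 to 3, 9 to 9 and 5 to 7 in the same order. Except for the fold minimum, the cause was not tested.

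With a replicate block, where the labels share numbers, 0 members were called between genotypes and 1 interaction of diaphragm against lung passed (0 without the block). The block gave 7, 6, 4, 3, 10 and 6 calls in wt contrasts and 7, 5, 5, 3, 9 and 5 in Hoxa5-/- contrasts, in that order. Outside wt trachea and lung not all pairs of the same number passed the same check. Between iBAT genotypes 4 of 5 pairs had correlations over 0.1, the lowest being 0.0727. In diaphragm genotypes and in Hoxa5-/- trachea against lung and diaphragm against lung 3 of 4 pairs did. The iBAT libraries of the 2 genotypes also share leading numbers in their names, whose meaning the labels do not give, and a replicate block by these called 0 members. Depth limits little here, since each member had at least 70 counts in every library.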
